A study of Mus musculus with 6 samples.

Results

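The genes examined here are 38 genes of the cell cycle and of proliferation, chosen by symbol as genes of S phase and mitosis that mark dividing cells in muscle. All 38 were found among the 41709 genes of the expression table, and 16 of them act in G1 and S phase and 22 in mitosis. RNA-seq was done on 6 tibialis anterior (TA) muscles of male C57BL/6J mice, with 3 LrpprcWT and 3 LrpprcP27A muscles collected 14 days after electroporation. The LrpprcWT muscles received a pCMV6 plasmid for Flag-tagged wild-type mouse Lrpprc, a protein that binds mitochondrial mRNAs. The LrpprcP27A muscles were the contralateral ones and received the same plasmid with proline changed to alanine at the dihydroxylated site (P27A). Both groups were therefore electroporated and carried an Lrpprc plasmid besides their own Lrpprc gene, and no GFP or untouched muscle is among these libraries. The CMV promoter of the plasmid is not restricted to myofibres, and the age of the mice used for RNA-seq is not stated outright in the sources used here.

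A cell that enters the cycle makes D and E cyclins in G1, loads the MCM helicase onto its origins and raises its supply of deoxynucleotides, and then copies its DNA in S phase. Later genes build the spindle, separate the chromosomes and end mitosis, and their mRNAs peak in G2 and M. Myofibre nuclei do not divide, so in adult muscle these mRNAs are known mainly from satellite cells, immune cells, endothelial cells and fibroadipogenic progenitors.

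Values are in TPM (transcripts in each 1000000), a gene's share of a library's transcripts corrected for length, and are given for replicates 1, 2 and 3 in that order. TPM sums to 1000000 in each library, so read depth is unknown and no counting error can be given. Myofibre markers were high in all 6 libraries, with between 35108 and 44523 TPM for the actin gene Acta1. Lrpprc itself was at 35.1, 37.0 and 75.2 TPM with LrpprcWT and at 26.9, 29.7 and 26.0 TPM with LrpprcP27A, reads from plasmid and endogenous gene together. Its groups did not overlap, with a log2 fold change of -0.72 ± 0.26 (SE) and an adjusted p of 0.0652 in limma, or 0.00243 with contralateral muscles paired. Here and below, muscles were paired by library number, which is not stated outright to be the mouse. The LrpprcWT library of replicate 2 stood apart from the other LrpprcWT libraries, so that results are given with and without it. It held the lowest LrpprcWT value for 36 of the 38 genes, compared with 11887 of 15795 genes in all. Mitochondrial transcripts took 40.8%, 45.2% and 36.0% of the TPM with LrpprcWT and 46.1%, 44.2% and 45.1% with LrpprcP27A, so that LrpprcWT replicate 2 lay among the LrpprcP27A libraries here too. A total over non-mitochondrial genes is among the scalings given at the end. Beyond that, the part of the mitochondrial share in the results was not tested. Fewer dividing cells and less of these mRNAs per cell cannot be told apart in whole muscle.

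Most cell cycle genes were lower with LrpprcP27A than with LrpprcWT in the muscles of replicates 1 and 3 and differed less in those of replicate 2. The summed TPM of the 22 mitotic genes was 41.7, 17.2 and 40.4 with LrpprcWT and 21.0, 18.4 and 16.1 with LrpprcP27A. The summed TPM of the 16 G1 and S phase genes was 85.2, 52.0 and 97.6 with LrpprcWT and 51.5, 39.1 and 51.0 with LrpprcP27A. The groups did not overlap for the G1 and S phase sum, whereas for the mitotic sum the LrpprcWT library of replicate 2 lay among the LrpprcP27A libraries. In the heat map of all 38 genes, the 2 other LrpprcWT columns stand out from the remaining 4.

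**Figure D1:**
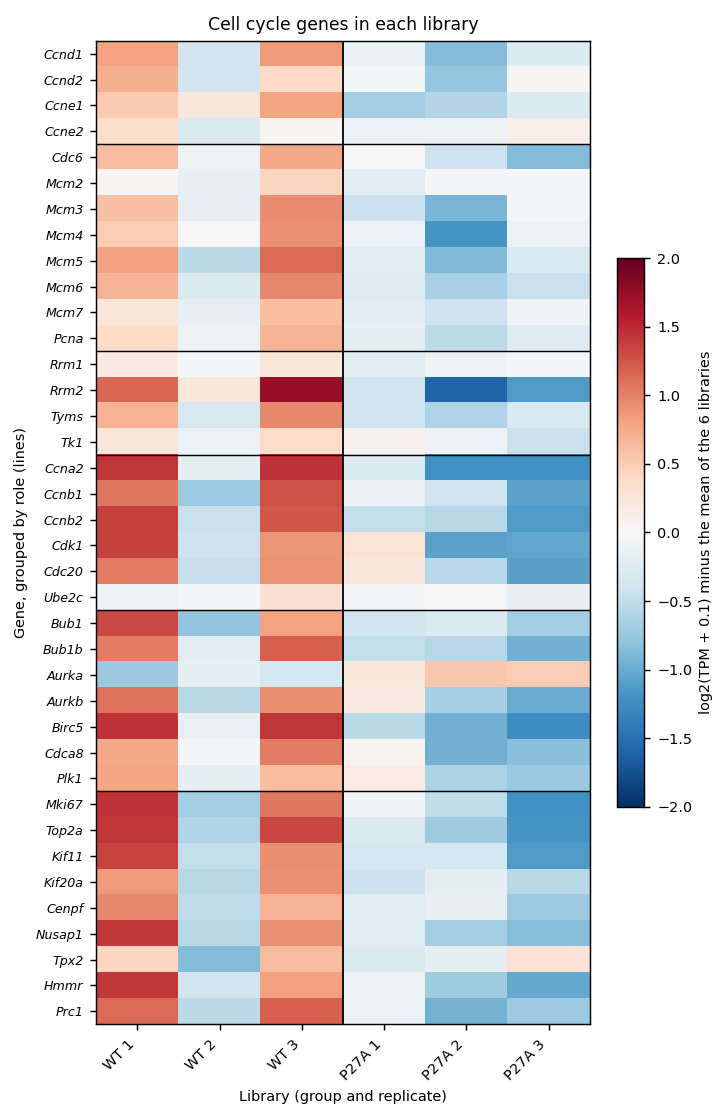
Level of the 38 cell cycle genes (rows, grouped by role) in the 6 libraries (columns, 3 LrpprcWT on the left and 3 LrpprcP27A on the right), as log2(TPM + 0.1) minus the gene's mean over the 6 libraries. Replicates 1 and 3 of LrpprcWT are above the mean for most genes, replicate 2 is near or below it, and Aurka runs the other way.

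Within each pair of contralateral muscles, the log2 difference (LrpprcP27A minus LrpprcWT, on the log2(TPM + 0.1) scale) was below 0 for 36, 27 and 36 of the 38 genes. The median difference over the 38 genes was -1.04, -0.28 and -1.45 in the pairs of replicates 1, 2 and 3. The 15795 genes whose TPM averaged 0.1 or more had medians of -0.49, -0.22 and -0.50 in the same pairs. Mitotic genes had medians of -1.27, -0.10 and -1.92, and G1 and S phase genes -0.69, -0.35 and -1.01. The pair of replicate 2 thus showed the smallest shift, and the mitotic genes there moved less than the median of all genes.

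**Figure D2:**
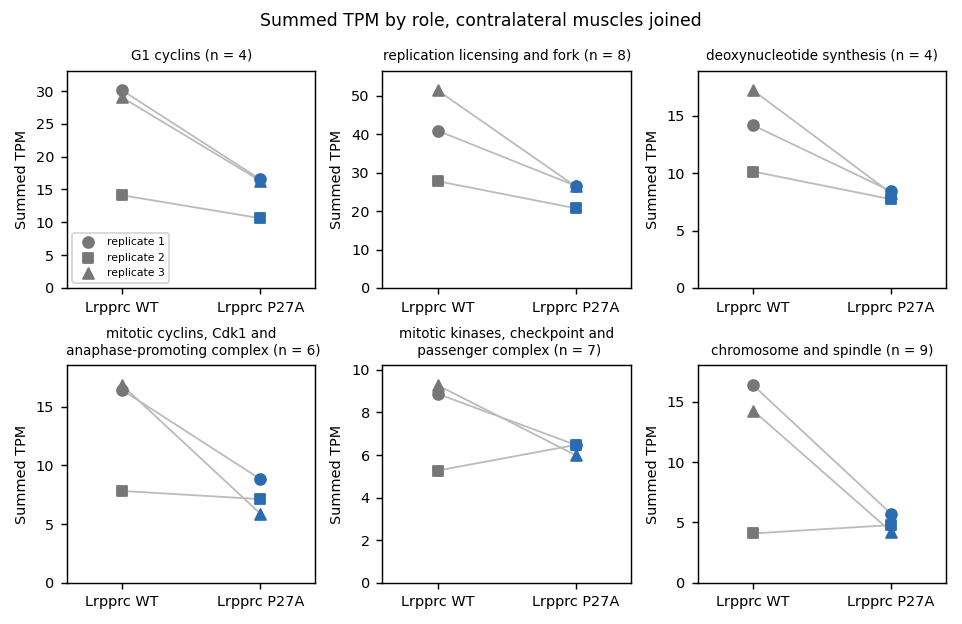
Summed TPM (y axis, from 0) of the cell cycle genes of each role in LrpprcWT (grey) and LrpprcP27A (blue) muscles, with 1 symbol per replicate, contralateral muscles joined by a line and n for the number of genes. Sums of the G1 cyclins, of replication licensing and fork genes and of deoxynucleotide synthesis are lower with LrpprcP27A in all 3 pairs. That of mitotic cyclins, Cdk1 and the anaphase-promoting complex is lower in all 3 pairs too. In the pair of replicate 2 the chromosome and spindle sum was 4.09 and 4.78. The sum of mitotic kinases, checkpoint and passenger complex was 5.27 and 6.47 there.

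Only 21 of the 38 genes reached a mean TPM of 1, the minimum for the first limma test on log2(TPM + 1), in which adjusted p-values below 0.05 were called. In that unpaired test 2 cell cycle genes were called lower (Rrm2 and Ccna2), or 9.52% of the 21, and 23.3% of all 11611 genes tested were called lower. Aurka was the 1 gene called higher, and 1.34% of all genes were. The median log2 fold change was -0.57 over the 21 genes and -0.32 over all genes, and most genes were lower on the TPM scale. With contralateral muscles paired, 14 of the 21 genes were called lower and 1 higher, beside 48.4% and 2.69% of all genes. Without the LrpprcWT library of replicate 2 the unpaired test also called 14 lower, and it then called 6913 of all 11611 genes lower. No cell cycle gene was called lower without the LrpprcWT library of replicate 1 or 3 or the LrpprcP27A library of replicate 3, and 5, 2 and 8 of them then had an unadjusted p below 0.05 in the lower direction. Calls fell over all genes too, to 291, 15 and 440 of 11611 called lower in the same order.

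A limma test on log2(TPM + 0.1) of the 15795 genes whose TPM averaged 0.1 or more took in all 38 cell cycle genes, and statistics of genes under a mean TPM of 1 are on this scale. It called 5 of them lower (Rrm2, Ccna2, Birc5, Ccne1 and Bub1b) and Aurka higher, where 17.8% of all genes were called lower and 1.03% higher. With contralateral muscles paired, 26 of 38 (68.4%) were lower and 1 higher, against 40.5% and 2.23% of all genes. Without the LrpprcWT library of replicate 2 it called 31 of 38 lower (81.6%) and 1 higher, against 49.6% and 2.13% of all genes. The median log2 fold change was -0.94 over the 38 genes, -1.18 over the mitotic genes, -0.85 over the G1 and S phase genes and -0.41 over all genes. In all, 37 of the 38 genes were below 0 and 31 were below the median of all genes.

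Median-of-ratios scaling, which sets the typical gene to no change, moved the median of all genes to -0.06 and left the median of the 38 genes at -0.60. On that scale 31 genes were below 0, and the paired test called 5 lower (13.2%) and 1 higher, beside 12.5% and 9.08% of all genes. The 5 were Rrm2, Ccna2, Birc5, Ccnd1 and Mcm3, so that the other 21 paired calls given for single genes in the lower direction were lost with this scaling. Among all 11611 genes of the first test, calls changed from 2705 lower and 156 higher to 700 lower and 610 higher with this scaling. The share of cell cycle genes called lower was thus near that of all genes once the libraries were scaled to each other.

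All LrpprcWT values lay above all LrpprcP27A values for 10 of the 38 genes, a smaller share than the 44.1% of all genes. Conversely, only Aurka had all LrpprcP27A values above all LrpprcWT values, against 3.16% of all genes. For 25 of the 38 genes the LrpprcWT libraries of replicates 1 and 3, but not that of replicate 2, lay above all LrpprcP27A libraries, a pattern held by 25.5% of all genes. Of those 25 genes, 16 were mitotic and 9 were genes of G1 and S phase. For a single gene, an exact permutation test of 3 against 3 libraries cannot give a two-sided p below 0.1.

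**Figure D3:**
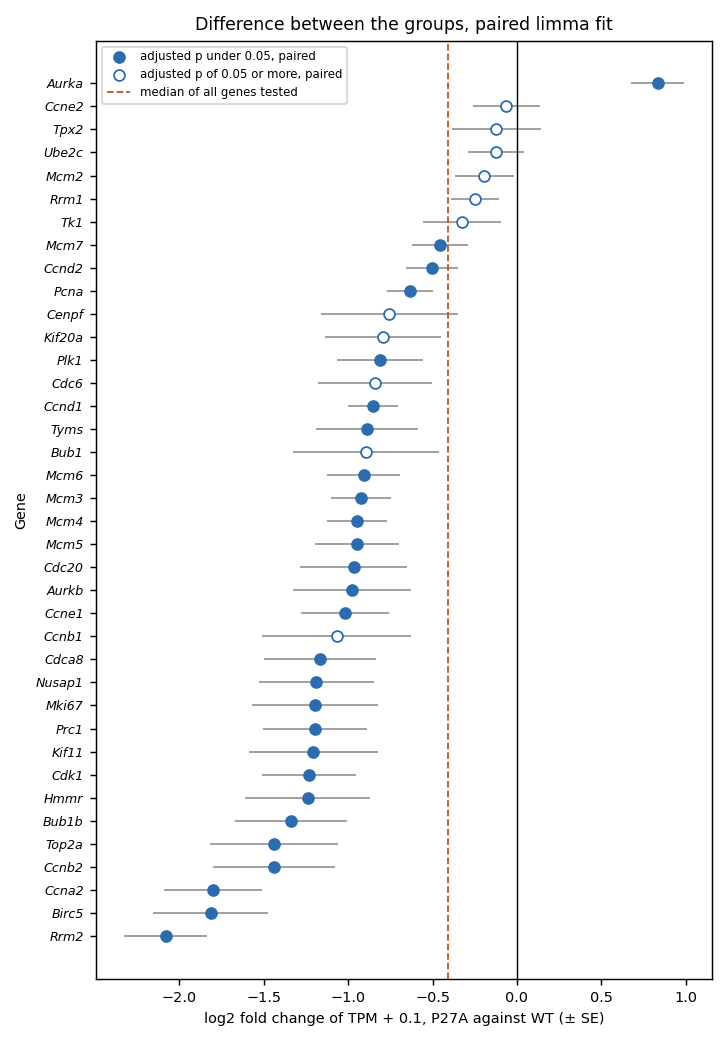
Log2 fold change of TPM + 0.1 (x axis, LrpprcP27A against LrpprcWT, ± SE) for each of the 38 cell cycle genes (y axis) in the limma fit with contralateral muscles paired. Filled points have an adjusted p below 0.05 (26 lower, and Aurka higher), and the dashed line is the median of all genes tested (-0.41).

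The promoters of such genes are known for motifs read by E2F factors (E2F sites), by the DREAM and MuvB complexes (cell cycle genes homology region, CHR) and by NF-Y (CCAAT boxes). Promoters were taken from RefSeq on GRCm38.p6 as the 250 bases before the start of the gene, and 30 of the 38 genes had one. The motifs were searched on both strands with the letters CCAAT for the CCAAT box, and with the letters TTTGAA or, in its other form, TTTAAA for CHR. For E2F they were the string TTGGCGC, the string TTGCCGC, the string TTCGCGC and the string TTCCCGC. The reverse complement of CCAAT shares TTGG with the first E2F string, so that those matches can overlap. A CCAAT box was present in 24 of 30 promoters (80.0%) and in 34.5% of the promoters of all 27025 genes. CHR letters were in 15 of 30 (50%) and in 25.5% of all, and E2F letters in 10 of 30 (33.3%) and in 7.97% of all. Mitotic promoters held CHR in 11 of 18 and E2F letters in 4 of 18, and G1 and S phase promoters held CHR in 4 of 12 and E2F letters in 6 of 12. The promoters below are those of Rrm2, the S phase gene with the lowest log2 fold change, of Ccnb2 and Cdk1, which act together in mitosis, and of Aurka, the gene that was higher. They are written 5′ to 3′ on the strand of the gene, with motif matches in capitals. They lie at chr12:24708004-24708253 (plus strand), chr9:70421555-70421804 (minus strand), chr10:69352913-69353162 (minus strand) and chr2:172370571-172370820 (minus strand) of GRCm38.p6.
Rrm2: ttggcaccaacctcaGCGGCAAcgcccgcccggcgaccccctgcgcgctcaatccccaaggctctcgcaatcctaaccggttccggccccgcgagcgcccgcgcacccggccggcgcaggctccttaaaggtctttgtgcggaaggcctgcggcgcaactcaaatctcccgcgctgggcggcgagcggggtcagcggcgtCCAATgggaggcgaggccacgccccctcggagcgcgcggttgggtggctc
Ccnb2: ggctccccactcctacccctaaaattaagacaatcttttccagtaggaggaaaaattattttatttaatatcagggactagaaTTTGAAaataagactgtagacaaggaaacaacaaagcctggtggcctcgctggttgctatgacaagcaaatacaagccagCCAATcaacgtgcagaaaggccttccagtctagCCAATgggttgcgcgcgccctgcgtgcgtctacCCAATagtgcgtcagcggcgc
Cdk1: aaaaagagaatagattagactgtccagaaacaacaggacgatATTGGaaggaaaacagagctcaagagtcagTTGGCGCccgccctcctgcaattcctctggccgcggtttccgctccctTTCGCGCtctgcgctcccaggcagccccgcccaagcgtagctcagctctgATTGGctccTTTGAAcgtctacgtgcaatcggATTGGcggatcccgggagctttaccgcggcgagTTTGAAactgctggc
Aurka: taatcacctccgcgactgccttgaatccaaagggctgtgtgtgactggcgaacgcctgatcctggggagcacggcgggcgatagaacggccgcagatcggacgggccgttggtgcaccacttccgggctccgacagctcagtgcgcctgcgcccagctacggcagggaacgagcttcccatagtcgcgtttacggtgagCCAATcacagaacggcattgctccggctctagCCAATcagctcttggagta
Rrm2 has 1 E2F match and 1 CCAAT box, and Ccnb2 has 1 CHR match and 3 CCAAT boxes. Cdk1 holds all 3 motifs, with 2 CHR matches, 3 CCAAT boxes and 2 E2F matches. Aurka has 2 CCAAT boxes and no CHR or E2F letters in this window, and Bub1 and Bub1b, which had lower mean values with LrpprcP27A, likewise have CCAAT boxes alone.

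Among the G1 cyclins, Ccnd1 (cyclin D1, a partner of Cdk4 and Cdk6) was at 19.4, 8.53 and 20.2 TPM with LrpprcWT and at 10.1, 6.02 and 9.19 TPM with LrpprcP27A. The LrpprcWT library of replicate 2 fell below 2 LrpprcP27A libraries, so that the groups overlapped. Its log2 fold change on log2(TPM + 1) was -0.79 ± 0.31 (SE), with an adjusted p of 0.0819 in limma and of 0.000171 with muscles paired. Ccnd2, another D cyclin, ranged from 3.52 to 7.54 TPM with LrpprcWT and from 2.61 to 4.73 TPM with LrpprcP27A, with an adjusted p of 0.221 unpaired and 0.0162 paired. With median-of-ratios scaling its log2 fold change moved from -0.42 to -0.11, and the paired adjusted p was 0.431. Ccne1 (cyclin E1, which activates Cdk2 at the start of S phase) was low in every library, at 0.732, 0.578 and 0.902 TPM with LrpprcWT and 0.264, 0.287 and 0.382 TPM with LrpprcP27A. Here the groups did not overlap, and Ccne1 fell by 1.02 ± 0.28 (SE) on the log2(TPM + 0.1) scale with an adjusted p of 0.0413. The call was lost with median-of-ratios scaling, unpaired and paired (adjusted p = 0.0839 and 0.0564), and without any 1 library other than LrpprcWT replicate 2 (adjusted p from 0.0896 to 0.154). Ccne2, the second E cyclin, was level, with 1.49 to 2.38 TPM against 1.68 to 2.02 TPM and an adjusted p of 0.814.

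Genes that license origins and move the replication fork included the most abundant cell cycle gene, Pcna, the sliding clamp of the DNA polymerases. Pcna was at 21.1, 15.1 and 26.1 TPM with LrpprcWT and at 14.4, 11.3 and 13.6 TPM with LrpprcP27A. All LrpprcWT libraries were above all LrpprcP27A libraries, by a log2 fold change of -0.60 ± 0.19 (SE) that missed the unpaired threshold (adjusted p = 0.0515, limma) and passed it when paired (adjusted p = 0.00126). With median-of-ratios scaling it was -0.25, and the paired call was lost (adjusted p = 0.0874). Mcm2 to Mcm7, the 6 subunits of the replicative helicase, had log2 fold changes between -0.70 (Mcm4) and -0.15 (Mcm2) on the log2(TPM + 1) scale. The unpaired limma test called none of the 6, with adjusted p-values from 0.0633 to 0.44 and 3 genes at an unadjusted p below 0.05. The subunits did not move in equal measure. Mcm4 was at 3.85, 2.69 and 5.11 TPM against 2.45, 1.12 and 2.47 TPM without overlap. By contrast, Mcm2 was at 2.93, 2.57 and 3.90 TPM against 2.48, 2.79 and 2.79 TPM. Paired, Mcm3, Mcm4, Mcm5, Mcm6 and Mcm7 were lower and Mcm2 was not called (adjusted p = 0.367). Cdc6, which loads the helicase, stayed below 0.6 TPM throughout (0.266 to 0.563 against 0.117 to 0.298) and missed the threshold also when paired (adjusted p = 0.067).

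Deoxynucleotide synthesis included Rrm2, which had the lowest log2 fold change of the 38 genes on the log2(TPM + 0.1) scale, while the ratio of mean TPM was larger for Birc5 (4.98) than for Rrm2 (4.65). Rrm2 is the S phase subunit of ribonucleotide reductase and was at 5.03, 2.61 and 7.62 TPM with LrpprcWT and at 1.67, 0.662 and 0.954 TPM with LrpprcP27A. Every LrpprcWT library exceeded every LrpprcP27A library, including that of replicate 2. Rrm2 fell by 1.48 ± 0.31 (SE) on the log2(TPM + 1) scale (adjusted p = 0.0205, limma), and by 2.08 ± 0.42 on the log2(TPM + 0.1) scale. The call was kept with median-of-ratios scaling (adjusted p = 0.037) and lost without the LrpprcWT library of replicate 1 or 3 or the LrpprcP27A library of replicate 3 (adjusted p = 0.0613, 0.101 and 0.0524). Rrm1, the partner subunit, which cells keep through the cycle, was at 7.20, 6.28 and 7.37 TPM against 5.37, 5.89 and 6.25 TPM. Its groups did not overlap either, but its log2 fold change was only -0.22 ± 0.13 (SE), with an adjusted p of 0.21 unpaired and 0.169 paired, and it was 0.11 with median-of-ratios scaling. The subunits of 1 enzyme thus differed in the size of their log2 fold change, and that difference was not tested. Tyms, which makes dTMP, was at 0.687, 0.293 and 0.851 TPM against 0.272, 0.218 and 0.292 TPM and was called when paired (adjusted p = 0.037). Tk1, which salvages thymidine, was at 1.26, 0.954 and 1.37 TPM against 1.11, 0.951 and 0.744 TPM and was not called in either test.

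**Figure D4:**
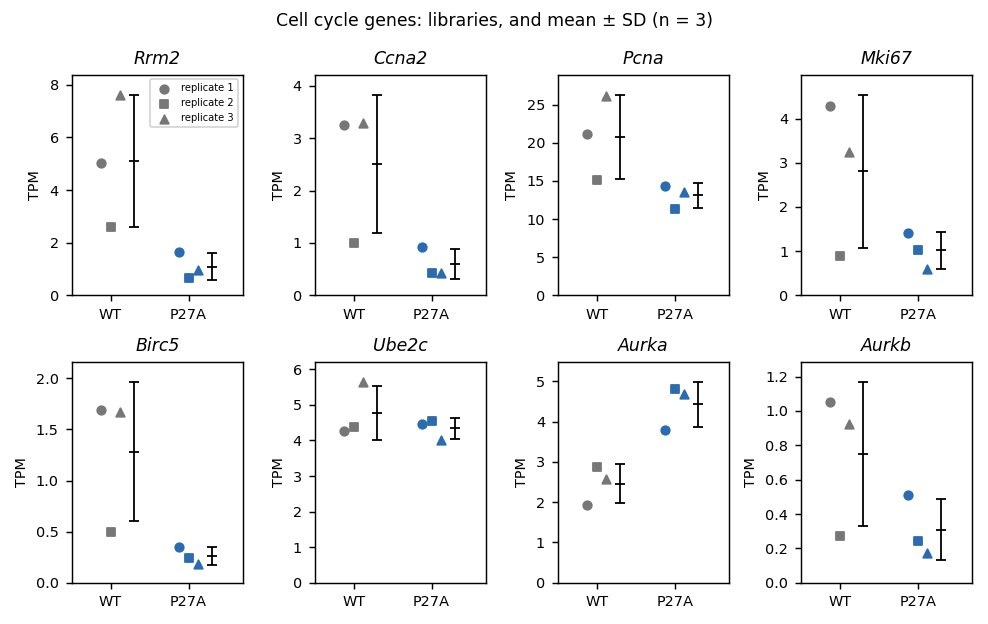
TPM (y axis, from 0) of 8 cell cycle genes in each LrpprcWT (grey) and LrpprcP27A (blue) library, with 1 symbol per replicate and the mean ± SD (n = 3) beside them. Rrm2, Ccna2, Pcna and Birc5 do not overlap between the groups, Mki67 and Aurkb overlap through replicate 2, Ube2c is level, and Aurka is higher with LrpprcP27A.

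Mitotic cyclins and Cdk1 were low but moved strongly in replicates 1 and 3. Ccna2 (cyclin A2, of S phase and G2) was at 3.26, 0.996 and 3.29 TPM with LrpprcWT and at 0.922, 0.437 and 0.436 TPM with LrpprcP27A. The groups did not overlap, although the LrpprcWT library of replicate 2 was close to the LrpprcP27A library of replicate 1. Ccna2 fell by 1.07 ± 0.29 (SE) on the log2(TPM + 1) scale (adjusted p = 0.036, limma), a call lost with median-of-ratios scaling unless muscles were paired (adjusted p = 0.0679 and 0.0214). Leaving out the LrpprcWT library of replicate 1 or 3 or the LrpprcP27A library of replicate 2 or 3 also ended it, with adjusted p-values from 0.088 to 0.148. Ccnb2 (cyclin B2) was at 3.67, 0.972 and 3.35 TPM against 0.951, 0.899 and 0.565 TPM, with no overlap but with the LrpprcWT library of replicate 2 just above the LrpprcP27A libraries. Its log2 fold change of -0.93 ± 0.30 (SE) had an adjusted p of 0.0536 unpaired and 0.00116 paired. Cdk1, the kinase that these cyclins activate, was at 2.08, 0.533 and 1.46 TPM against 0.916, 0.300 and 0.309 TPM, with a paired adjusted p of 0.00728 on the log2(TPM + 0.1) scale. Ccnb1 (cyclin B1) was at 0.802, 0.165 and 0.957 TPM against 0.298, 0.230 and 0.109 TPM and was not called in either test.

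The anaphase-promoting complex, a ubiquitin ligase that ends mitosis, was represented by its activator Cdc20 and its ubiquitin-conjugating enzyme Ube2c. Cdc20 was at 2.33, 0.770 and 2.13 TPM with LrpprcWT and at 1.29, 0.710 and 0.463 TPM with LrpprcP27A, and was called lower when paired (adjusted p = 0.013). Ube2c went its own way, at 4.28, 4.39 and 5.64 TPM against 4.46, 4.55 and 4.01 TPM, with a log2 fold change of -0.11 ± 0.15 (SE) and an adjusted p of 0.564. In the GENCODE annotation of GRCm39 it overlaps Tnnc2, the fast troponin C gene, which stood at 12544 to 15722 TPM in these libraries. The kit does not mark strand, so that reads of the 2 genes cannot be told apart where they overlap. Another protein-coding gene overlaps 13 of the 38 genes in that annotation, a check made after the values were seen. Among them are genes called lower: Ccna2 (with Exosc9), Ccne1 (1600014C10Rik), Cdc20 (Elovl1), Cdk1 (Ank3) and Ccnd1 (LTO1). Mcm7 (Cops6 and Ap4m1), Nusap1 (Oip5) and Prc1 (Rccd1) are others. Mean TPM with LrpprcWT and LrpprcP27A was 7.07 and 5.75 for Exosc9, 16.6 and 14.6 for 1600014C10Rik, and 7.38 and 3.81 for Elovl1. The part of overlapping reads in these calls was not tested.

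Aurka, the mitotic kinase of centrosomes and spindle poles, was the only one of the 38 genes with higher values in all LrpprcP27A libraries. It was at 1.93, 2.88 and 2.56 TPM with LrpprcWT and at 3.79, 4.81 and 4.68 TPM with LrpprcP27A, and was higher in 3 of 3 pairs. Aurka rose by a log2 fold change of 0.66 ± 0.16 (SE, adjusted p = 0.0279, limma), and by 0.93 with median-of-ratios scaling (adjusted p = 0.0307). The call was lost on leaving out the LrpprcWT library of replicate 1 or 3 or the LrpprcP27A library of replicate 2 or 3, with log2 fold changes between 0.54 and 0.68 and adjusted p-values between 0.0886 and 0.107. The gene overlaps Cstf1 and Fam210b in GENCODE, whose log2 fold changes were -0.30 and -0.01 on the deposited scale. With median-of-ratios scaling they were 0.04 and 0.31, and Fam210b was then called higher when paired (adjusted p = 0.0478), so that the part of overlapping reads was not tested. Tpx2, which activates the Aurka kinase on the spindle, was at 2.10, 0.795 and 2.43 TPM against 1.25, 1.34 and 1.89 TPM and was not called (adjusted p = 0.726).

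The related kinase Aurkb works in the chromosomal passenger complex with Birc5 (survivin) and Cdca8 (borealin), and all 3 had lower mean values with LrpprcP27A. Aurkb was at 1.05, 0.269 and 0.926 TPM against 0.511, 0.242 and 0.173 TPM, lower with LrpprcP27A in the 3 pairs in which Aurka was higher. Birc5 showed the largest difference of the complex, at 1.69, 0.496 and 1.67 TPM against 0.354, 0.240 and 0.179 TPM. Its groups did not overlap, and Birc5 fell by 1.82 ± 0.45 (SE) on the log2(TPM + 0.1) scale (adjusted p = 0.0325, limma). The call was lost with median-of-ratios scaling unless muscles were paired (adjusted p = 0.0589 and 0.0313), and without LrpprcWT replicate 1 or 3 or LrpprcP27A replicate 2 or 3 (adjusted p from 0.0976 to 0.142). Cdca8 was at 0.554, 0.278 and 0.695 TPM against 0.301, 0.0985 and 0.118 TPM, and both Aurkb and Cdca8 were called lower when paired (adjusted p = 0.0448 and 0.0194). Of the spindle checkpoint kinases, Bub1b fell by 1.34 ± 0.39 (SE) on the same scale (adjusted p = 0.0468), from 1.42, 0.545 and 1.62 TPM to 0.434, 0.405 and 0.285 TPM. That call ended with median-of-ratios scaling, unpaired and paired (adjusted p = 0.0924 and 0.0768), and without any 1 library other than LrpprcWT replicate 2 (adjusted p from 0.0711 to 0.174). Bub1 was at 0.776, 0.102 and 0.513 TPM against 0.173, 0.187 and 0.117 TPM and was not called, paired or not. Plk1, which drives mitotic entry, was at 1.46, 0.699 and 1.29 TPM against 0.913, 0.487 and 0.439 TPM and was called lower when paired (adjusted p = 0.0279).

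Of the chromosome and spindle genes, 9 of 9 had LrpprcWT replicates 1 and 3 but not replicate 2 above all LrpprcP27A libraries. Mki67, which encodes the proliferation antigen Ki-67 on mitotic chromosomes, was at 4.29, 0.892 and 3.23 TPM with LrpprcWT and at 1.42, 1.04 and 0.596 TPM with LrpprcP27A. Top2a, the topoisomerase that untangles sister chromatids, was at 2.67, 0.578 and 2.5 TPM against 0.752, 0.532 and 0.355 TPM. The groups of both genes overlapped through that library. On the log2(TPM + 1) scale the log2 fold change of Mki67 was -0.81 ± 0.35 (SE, adjusted p = 0.103) and that of Top2a -0.83 ± 0.30 (adjusted p = 0.07), and both passed when paired (adjusted p = 0.00389 and 0.00221). Neither passed with pairing and median-of-ratios scaling together (adjusted p = 0.147 and 0.0882).

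The remaining spindle genes had low values. Kif11, the motor that separates the spindle poles, was at 1.71, 0.412 and 1.26 TPM against 0.464, 0.458 and 0.225 TPM. Prc1, which bundles the central spindle, was at 1.46, 0.386 and 1.53 TPM against 0.555, 0.267 and 0.328 TPM. Nusap1 and Hmmr, which bind spindle microtubules, had 0.330 to 1.58 and 0.146 to 0.750 TPM with LrpprcWT and 0.251 to 0.433 and 0.0562 to 0.194 TPM with LrpprcP27A. These 4 genes were called lower when paired. Kif20a, a motor of cytokinesis, and Cenpf, a kinetochore protein, had 0.446 to 1.41 and 0.106 to 0.468 TPM against 0.445 to 0.599 and 0.0758 to 0.162 TPM, and neither was called (paired adjusted p = 0.0835 and 0.148).

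Genes that hold or drive the cycle were examined from further lists. Their counts stand beside the 23.3% of all genes called lower in the unpaired limma test and the 48.4% called lower when paired. Of 7 genes for CDK inhibitors, which stop the cycle, 4 were called lower in the unpaired test. Cdkn1a, which encodes p21, was at 45.7, 33.1 and 50.8 TPM with LrpprcWT and at 10.5, 8.29 and 15.4 TPM with LrpprcP27A, far apart and without overlap in any replicate. Cdkn1a fell by 1.85 ± 0.23 (SE) on the log2(TPM + 1) scale (adjusted p = 0.0089), Cdkn1c (p57) by 1.45 (adjusted p = 0.0116) and Cdkn2a by 1.16 (adjusted p = 0.013). Genes of the inhibitors and of the G1 cyclins thus both had lower mean values with LrpprcP27A. Among 9 tested genes for CDKs, other G1 cyclins, their partners and Cdc25, 6 were called lower, including Cdk6 (log2 fold change -0.85), Cdk4 (-0.70) and Cks1b (-1.07). Of 10 p53 target genes 4 were called lower, with Btg2, an antiproliferative gene, at -1.41 and Gadd45a, a DNA damage gene, at -1.29.

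Among E2F factors, pocket proteins and DREAM components, 4 of 15 tested genes were called lower and 1 higher, a share near that of all genes. E2f2, an activator of S phase genes, fell by 1.27 ± 0.20 (SE) on the log2(TPM + 1) scale (adjusted p = 0.0125), from 9.20, 8.05 and 8.22 TPM to 4.15, 2.91 and 2.03 TPM. E2f1, a further activator, fell by 0.68 (adjusted p = 0.0492, and 0.104 with median-of-ratios scaling), from 1.91, 1.02 and 2.68 TPM to 0.875, 0.711 and 0.645 TPM. E2f6, a repressor, rose by a log2 fold change of 0.38 (adjusted p = 0.0484, and 0.0536 in the test on log2(TPM + 0.1)), from 38.5, 43.8 and 40.2 TPM to 47.8, 53.4 and 59.4 TPM. Foxm1, the activator of mitotic genes, was at 1.87, 0.474 and 1.53 TPM against 0.768, 0.301 and 0.371 TPM and was not called (adjusted p = 0.108 on the log2(TPM + 0.1) scale). Of 19 tested genes of the replication origin and fork outside the 38, only Rpa1 was called lower (-0.49), and of 9 tested genes of the kinetochore, condensin and spindle only Smc4 (-0.79). Paired, these counts were 8 of 19, below the share of all genes, and 8 of 9. With median-of-ratios scaling the unpaired calls were 3 lower for the CDK inhibitors, 1 for the CDKs, 2 for p53 targets, 2 lower and 2 higher for E2F and pocket proteins, 1 higher for replication genes and 0 for the kinetochore list, where 2 genes were lower at an unadjusted p below 0.05. Of all 11611 genes, 700 were called lower and 610 higher in that test.

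**Figure D5:**
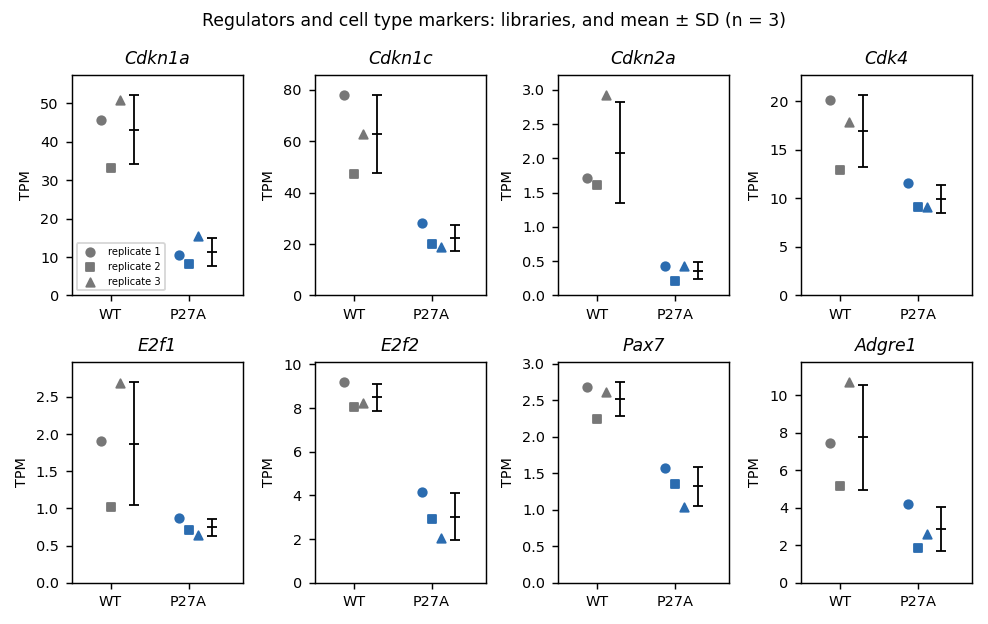
TPM (y axis, from 0) of 6 cell cycle regulators, the satellite cell gene Pax7 and the macrophage gene Adgre1 in each LrpprcWT (grey) and LrpprcP27A (blue) library, with the mean ± SD (n = 3) beside them. In all 8 panels the LrpprcWT libraries lie above the LrpprcP27A libraries without overlap, including replicate 2. The genes shown were drawn from those named in the text, a choice that favours low adjusted p-values. Such separation was held by 44.1% of all genes, by 4 of 7 CDK inhibitor genes and by 6 of 19 E2F, pocket protein and DREAM genes. Foxm1 and E2f6, which lack it, are not shown.

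Several markers of cell types that can divide in muscle, or of cells that arise from them, were also lower with LrpprcP27A. In the pairs of replicates 1, 2 and 3 their median log2 differences were -1.49, -1.35 and -2.03 for satellite cell and myoblast markers. Macrophage markers had -0.79, -1.41 and -1.69, fibroadipogenic progenitor and fibroblast markers -0.74, -0.97 and -0.76, and endothelial markers -0.44, -0.33 and -0.51. The 38 cell cycle genes had -1.04, -0.28 and -1.45. In the pair of replicate 2 they thus moved less than the satellite cell, macrophage and fibroblast markers, and about as much as the endothelial markers. Of 7 satellite cell and myoblast markers 6 were called lower in the unpaired test, and their summed TPM was 139, 83.1 and 157 with LrpprcWT and 43.7, 27.6 and 37.9 with LrpprcP27A. That list includes genes of differentiating muscle cells and of developmental myosins, so that its values do not stand for dividing cells alone. Pax7, which marks satellite cells, was at 2.68, 2.24 and 2.62 TPM against 1.57, 1.36 and 1.03 TPM. All 7 tested macrophage markers were called lower, and the 8 genes of that list summed to 339, 270 and 524 TPM against 179, 92.3 and 128 TPM. The eighth, the scavenger receptor gene Cd163, was below the minimum of that test and ran the other way, at 0.315, 0.581 and 0.480 TPM against 1.08, 0.821 and 1.67 TPM. Its groups did not overlap, and Cd163 rose by a log2 fold change of 1.18 on the log2(TPM + 0.1) scale (adjusted p = 0.0411, limma). Fibroadipogenic progenitor and fibroblast markers were lower in 4 of 6, summing to 1305, 819 and 1235 TPM against 474, 227 and 302 TPM. Endothelial markers were called lower in 1 of 5, beside 23.3% of all genes. They summed to 256, 142 and 191 TPM against 145, 104 and 110 TPM. In contrast to the mitotic sum, the satellite cell, macrophage and fibroblast sums did not overlap between the groups in any library. With median-of-ratios scaling 5 satellite cell, 3 macrophage and 2 fibroblast markers were called lower, and 0 endothelial markers were, also at an unadjusted p below 0.05. Of all 11611 genes, 700 were called lower with that scaling. The part of these cell types in the lower cell cycle values was not tested.

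Markers of the other cell types were mostly not called. Lymphocyte genes were low, with Cd3e, a T cell receptor subunit, at 0.214 to 0.255 TPM with LrpprcWT and 0.0738 to 0.075 TPM with LrpprcP27A. Cd3e was below the minimum of the first test. The 1 lymphocyte gene tested there was another one, which was not called unpaired and was called lower when paired. The Schwann cell genes (2 tested) and erythroid genes (3 tested) had 0 called in the unpaired limma test, also at an unadjusted p below 0.05, with summed TPM of 18.3 to 36.2 and 1592 to 2582 with LrpprcWT and 16.0 to 33.3 and 2312 to 2874 with LrpprcP27A. When paired, 1 erythroid gene was called higher. With pairing and median-of-ratios scaling together, all 3 tested erythroid genes were called higher, beside 1561 of all 11611 genes. Of 6 myofibre markers 2 were called lower (Mylpf and Myh2), and their summed TPM lay between 91802 and 109852.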

How the data were processed

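RNA-seq values of 6 TA muscles, 3 per group, were used. RNA was extracted with TRIzol, and libraries were made with the TruSeq RNA v2 kit, which does not mark strand. The authors trimmed and filtered paired reads of 100 bp (quality of at least Q20, length of at least 50 bp), used CLC Genomics Workbench to align them to GRCm39, and deposited TPM per gene. TPM keeps no read depth, so that the precision of a low value is unknown. The annotation used by the authors is not given in the sources used here. Gene positions and overlaps were read from GENCODE on GRCm39, matched by symbol.

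Log2(TPM + 1) of the 11611 genes whose TPM averaged 1 or more was compared between the groups with limma 3.58.1 in R 4.3.3 (moderated linear model with a trend) and Benjamini-Hochberg adjustment over all genes tested, at an adjusted p below 0.05. Log2(TPM + 0.1) with a mean of at least 0.1 covered 15795 genes. Fold changes on these scales understate those of low genes. The study calls the libraries biological replicates. Libraries with the same number were paired, since both groups share the numbers and contralateral muscles were compared. The sources used here do not state outright that a number stands for a mouse, so this pairing is inferred. Deviations from the group means correlated by 0.363, 0.528 and 0.356 in the same-numbered pairs. On simulated data for 11611 genes, 194 of 200 changed genes were called, and 9 others. The raised genes among the 200 had a median fitted log2 fold change of 1.98, and the noise was independent between genes. How well smaller changes, as in most cell cycle genes, are called was not tested.

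The alternatives were other pseudocounts, filters and scalings, limma without the trend, a linear model without moderation, the Kruskal-Wallis test, the replicate block and each library left out. Those for all 38 genes together were added after the data were seen. The 38 genes, the further lists and the tests were chosen with earlier results of these data known. All 38 genes are named, and from each further list at most the 3 genes with the lowest adjusted p and its defining genes. E2f6, Cd163 and the overlapping genes were named after their values were seen. No set test was made.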

Additional observations from a re-analysis of the deposited data

How the results depend on the processing

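Among the 21 genes tested, 2 were lower and 1 was higher in the unpaired limma fit. Lower counts were 0 with the Kruskal-Wallis test, with a mean TPM of at least 5, without a filter and without moderation (6, 2, 16 and 1 genes at an unadjusted p below 0.05), and 1 with median-of-ratios scaling, quantile normalization or a total over non-mitochondrial genes. They were 5 with the filter and the pseudocount both at 0.1, which tests all 38 genes, 14 with the replicate block and 4 with the block and median-of-ratios scaling. Over all genes, lower counts were 0, 1560, 42 and 1 with the Kruskal-Wallis test, a mean TPM of at least 5, no filter and no moderation. They were 700, 521 and 1930 with the scalings in the order given, and 1839 with the block and median-of-ratios scaling. Higher counts among the cell cycle genes were 0 with the Kruskal-Wallis test, without a filter, without moderation (1 gene each at an unadjusted p below 0.05) and at a mean TPM of at least 5, which removes Aurka. The Kruskal-Wallis test of 3 against 3 cannot pass the threshold after adjustment here. Leaving out 1 library gave 0 to 14 cell cycle genes lower, with 14 without replicate 2 of LrpprcWT, and 0 to 1 higher. Over all genes it gave 15 to 6913 lower, with 6913 without replicate 2 of LrpprcWT. For all 38 genes, 5 were lower, and 1 with median-of-ratios scaling, 26 with the block and 0 to 31 on leaving out 1 library, with 31 without replicate 2 of LrpprcWT. That count was 0 without LrpprcWT replicate 1 or 3 or LrpprcP27A replicate 2 or 3, with 6, 6, 9 and 11 genes lower at an unadjusted p below 0.05. The higher count was 0 to 1. The cause was not tested.

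Genes that were not called in the unpaired test turned direction with scaling, among them Mcm7, which was called lower when paired. With median-of-ratios scaling, with or without the replicate block, log2 fold changes were 0.20 for Ccne2, 0.13 for Mcm2, 0.11 for Rrm1, 0.014 for Tk1, 0.20 for Ube2c and 0.13 for Tpx2. With quantile normalization they were 0.34, 0.25, 0.17, 0.16, 0.29 and 0.27 for the same genes and 0.049 for Mcm7, and a total over non-mitochondrial genes gave 0.026 for Ccne2. Leaving out 1 library gave -0.15 to 0.066 for Ccne2, -0.17 to 0.00049 for Ube2c and -0.40 to 0.071 for Tpx2. Unknown depth limits the values below 1 TPM.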
